A study of Mus musculus with 24 samples.

Results

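The 10 Wnt ligand genes described here (Wnt2, Wnt2b, Wnt4, Wnt5a, Wnt5b, Wnt6, Wnt7b, Wnt10a, Wnt10b and Wnt11) were taken by symbol from a table of read counts of 56748 genes in 24 RNA-seq libraries of mouse tooth germ mesenchyme. The table holds 19 Wnt ligand genes in all. The choice of the 10 used no fold change, but it was made with earlier results of these data known. All libraries came from ICR mouse embryos with no genetic change, from mandibular first molar germs whose mesenchyme had been freed of epithelium with dispase II. They fall into 8 groups of 3 libraries. Cap-W and Bell-W are the undivided mesenchyme at the cap and the bell stage, and Cap-L, Cap-B, Bell-L and Bell-B are its lingual (tongue side) and buccal (cheek side) parts. Cap-L+2D and Cap-B+2D are such parts, taken at the cap stage and kept in culture for 2 days. The series' own design text calls the W samples whole tooth germs, while its protocol speaks of isolated mesenchyme. Nothing ties a library to particular embryos, so p-values measure the spread between these libraries, which may be partly technical.

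Wnt ligands are secreted, lipid-bearing proteins that bind Frizzled receptors on nearby cells. With the coreceptors Lrp5 and Lrp6 they stabilise β-catenin, which then acts with Lef1 and other TCF factors, and with Ror2 and similar receptors they guide cell shape and movement instead. In the early tooth, Wnt signals pass between the epithelium and the mesenchyme under it. Wnt4, Wnt6, Wnt7b, Wnt10a and Wnt10b are known mainly as ligands of the dental and oral epithelium, and Wnt10a later also as a product of odontoblasts. Wnt5a is known as a ligand of the dental mesenchyme. Wnt2, Wnt2b, Wnt5b and Wnt11 were set beside it with less certainty. This division is background and was not drawn from the libraries.

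All Wnt ligands share a conserved serine to which the acyltransferase Porcn attaches the lipid that Wls and the Frizzled receptors recognise. The stretch around its codon is shown because it is the signature by which the 10 genes belong together. The 24 coding bases below were read from the reference mouse genome GRCm39 and its GENCODE vM39 transcripts, 5′ to 3′ on the coding strand, with the serine codon in capitals. Each lies within 1 coding exon.
Wnt2: tgtcatggtgtgAGTggctcctgt
Wnt2b: tgtcacggtgtgAGTggctcctgt
Wnt4: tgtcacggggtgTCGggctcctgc
Wnt5a: tgtcatggagtgTCTggctcctgt
Wnt5b: tgtcacggagtcTCCgggtcctgc
Wnt6: tgccatgggcttTCGggttcctgc
Wnt7b: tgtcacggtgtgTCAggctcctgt
Wnt10a: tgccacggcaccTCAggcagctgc
Wnt10b: tgccatggaacgTCAggcagctgc
Wnt11: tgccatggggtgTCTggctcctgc

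Wnt2 and Wnt2b differed at 1 of these bases and were the only members that spelled the serine AGT. Over the whole coding sequence the closest pairs were Wnt5a with Wnt5b (78.2% of aligned bases identical), Wnt10a with Wnt10b (70.4%) and Wnt2 with Wnt2b (69.1%). At the site itself these pairs differed at 5, 3 and 1 bases, so the site does not rank the pairs as the whole coding sequence does. The site of Wnt2 is at chr6:18008791-18008814 on the minus strand in exon 4 of 5, and that of Wnt11 is at chr7:98499467-98499490 on the plus strand in exon 4 of 5. The site of Wnt5a is at chr14:28244472-28244495 on the plus strand in exon 5 of 5. The genes for Wnt6 (chr1:74811051-74824481) and Wnt10a (chr1:74830675-74843338) are neighbours on the plus strand, 6193 bases apart.

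Counts per library totalled 20581720 to 39266497. All 10 ligands were above the floor of 3 counts in every library, with the lowest value (11 counts) for Wnt10a in Cap-W replicate 1. Values are given below as normalised CPM, counts scaled to 1000000 per library and adjusted between libraries by the TMM method, and levels of different genes are compared only as RPKM, which also divides by the gene's exon length. Among the undivided libraries, Cap-W replicate 1 and Bell-W replicate 3 stood apart from their replicates. The median squared difference between replicates was 14.2 to 21.5 times that of counting noise in pairs that held either of them. It was 3.61 and 5.04 times in the remaining pairs of Cap-W and Bell-W and 1.25 to 4.81 times in the other groups. All 14 epithelial markers checked were above the floor in at least 1 library of every group, so epithelial RNA was present in this mesenchyme. Their summed level was 463 CPM in Cap-B, 685 in Cap-L, 770 in Bell-B and 1109 in Bell-L, and 528 in Cap-L+2D against 103 in Cap-B+2D. The 3 most abundant of them by mean RPKM over the groups were the keratin genes Krt5, Krt14 and Krt17. In bulk RNA, fewer cells of a type and less RNA per cell cannot be told apart. The 10 dental mesenchyme markers include Prrx1, Msx1, Pax9 and Barx1, and also Vim, Col1a2 and Col3a1. They summed to between 8177 CPM in Cap-W and 22370 in Cap-L+2D. The sum does not stand for each marker. From Cap-B to Cap-B+2D it rose from 12660 to 18370 CPM, while 4 markers were called higher and 2 lower. Their median log2 fold change there was −0.32, and 34.5% of all genes tested were called.

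Wnt5a was the most abundant of the 10 ligands in every group. Its mean over the 24 libraries was 26.03 RPKM, against 5.26 RPKM for Wnt11, 4.34 for Wnt5b, 3.87 for Wnt4 and 3.63 for Wnt2. Wnt6, Wnt10b, Wnt10a, Wnt2b and Wnt7b followed at 3.20, 2.98, 2.29, 1.45 and 1.21 RPKM. Wnt5a made up 33.0% ± 1.94 (SD, n = 3) of the summed RPKM of the 10 ligands in Cap-L and 65.9% ± 1.17 (SD, n = 3) in Cap-B+2D, the lowest and highest group means. Wnt2 made up 16.9% ± 0.63 (SD, n = 3) in Cap-L and 1.63% ± 0.133 (SD, n = 3) in Cap-B+2D. Wnt11 reached its highest share in Cap-L+2D, with 18.1% ± 0.755 (SD, n = 3). The sum itself ranged from 37.4 RPKM in Cap-W to 65.4 RPKM in Bell-L.

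**Figure D1:**
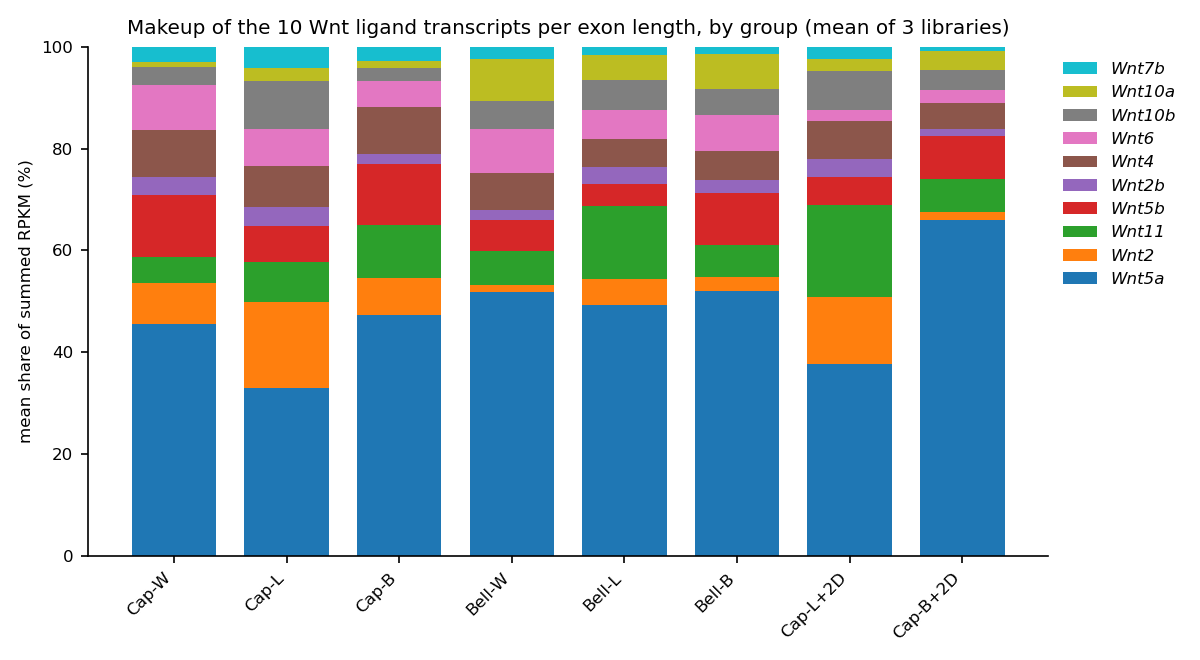
Mean share of each ligand in the summed RPKM of the 10 Wnt ligands (vertical axis, percent) in the 8 groups of 3 libraries. Wnt5a forms the bottom block, from 33.0% in Cap-L to 65.9% in Cap-B+2D, and the Wnt2 block above it shrinks from 16.9% in Cap-L to 1.63% in Cap-B+2D.

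The ligands varied over the groups in different orders. Wnt10a and Wnt2 had the widest ranges of group means, with the highest 13.5 and 11.4 times the lowest. Wnt4 and Wnt5a had the narrowest, at 1.93 and 2.18 times. For Wnt4 this rests on Bell-W replicate 3, since the other 2 Bell-W libraries averaged 8.72 CPM, below the lowest group mean (11.0 CPM in Cap-B+2D). Wnt2 (chr6:17988939-18030584, minus strand), best known for its part in lung development together with Wnt2b, ran from Cap-L (17.8 CPM) and Cap-L+2D (17.1), whose libraries overlapped, through Cap-B (8.93), Bell-L (7.66), Cap-W (6.76) and Bell-B (3.81) to Cap-B+2D (1.87) and Bell-W (1.56). Of these neighbours, only the first pair and the pair of Bell-L and Cap-W overlapped. Wnt11 (chr7:98484319-98504402, plus strand), a ligand of cell movement and of kidney branching, was led by Cap-L+2D (43.0 CPM), Bell-L (38.6) and Cap-B (23.4), none of which overlapped. Bell-W (16.7), Bell-B (15.9), Cap-L (15.2) and Cap-B+2D (13.5) followed, each overlapping the next, and Cap-W was lowest (7.82). Wnt5a (chr14:28226707-28249405, plus strand), which drives limb and jaw outgrowth, had 2 blocks of overlapping neighbours. Cap-B+2D, Bell-B, Bell-L, Bell-W and Cap-B lay between 262 and 203 CPM, and Cap-L+2D, Cap-W and Cap-L between 169 and 121 CPM. Both blocks rest on the wide undivided groups. Cap-B (200.5 to 207.5 CPM) overlapped only Bell-W replicate 3 (201.4) and lay below every Bell-L, Bell-B and Cap-B+2D library. Cap-L (117 to 123.8 CPM) and Cap-L+2D (166.7 to 173.4) were joined only through Cap-W (103.1 to 183.2). Wnt5b, its closest relative and a regulator of cartilage growth, was highest in Cap-B (17.7 CPM) and Bell-B (16.9), which overlapped, and lowest in Bell-L (7.62). Wnt2b was highest in Bell-L (8.95 CPM), Cap-L+2D (8.49) and Cap-L (7.23), each overlapping the next, and lowest in Cap-B+2D (2.89).

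**Figure D2:**
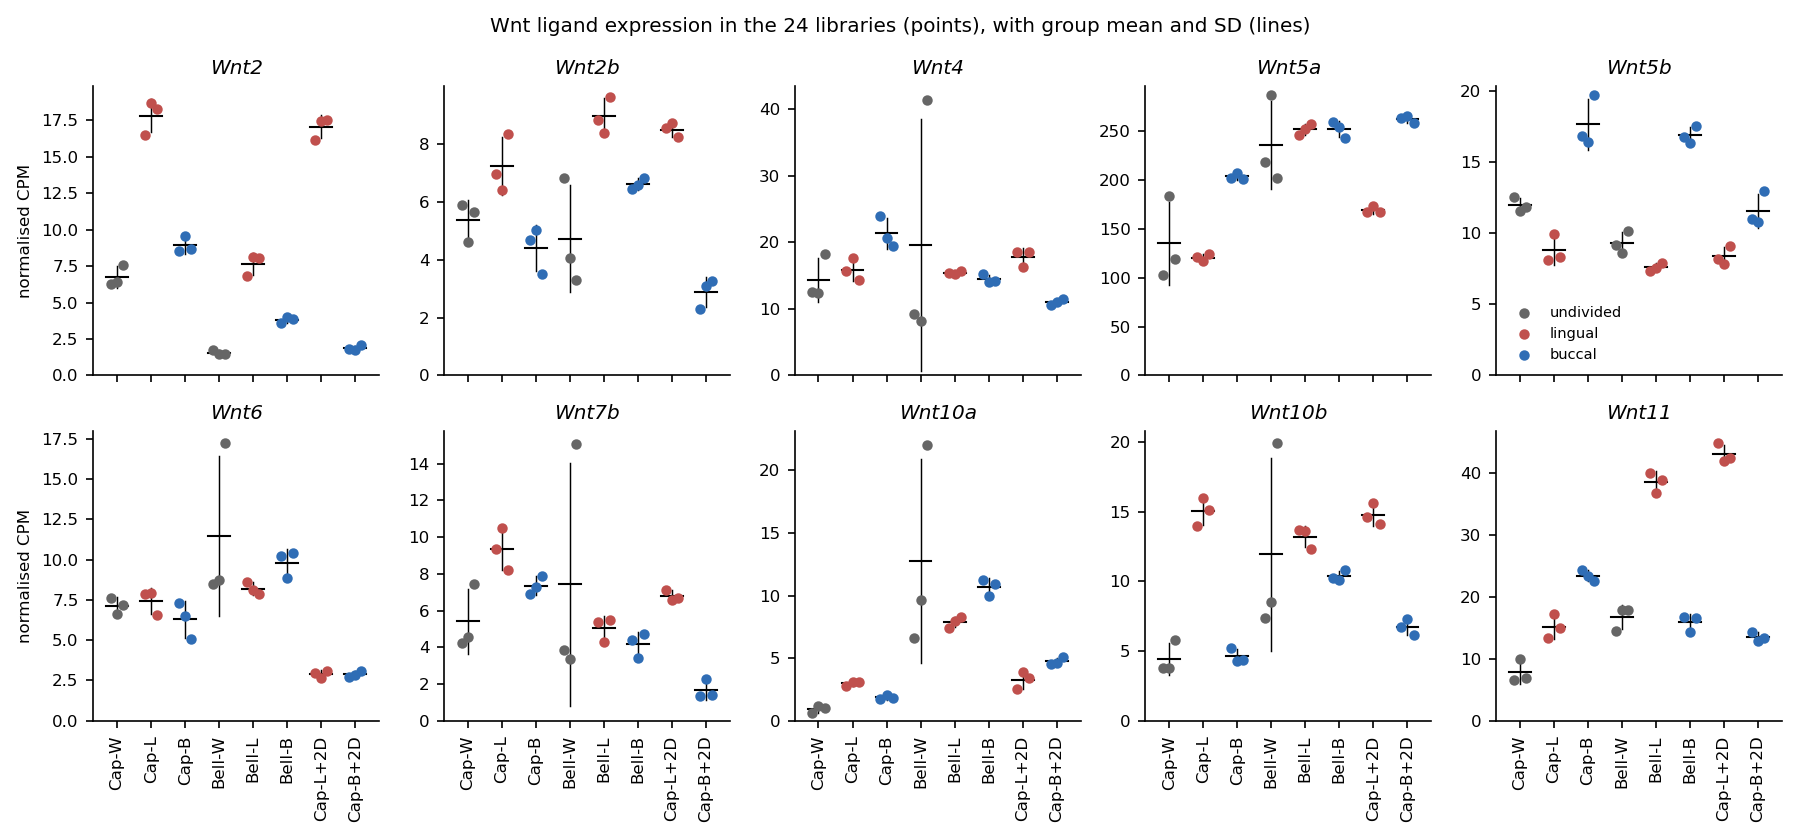
Normalised CPM (vertical axis, linear, from 0) of each ligand in each library (points) of the 8 groups, with the group mean and SD as lines. Wnt2, Wnt2b, Wnt5b, Wnt10a, Wnt10b and Wnt11 separate lingual (red) from buccal (blue) libraries in each pair of parts. Pair by pair, 52.4% of all genes tested do so at the cap stage, 45.5% at the bell stage and 59.1% after culture. The share that does so in all pairs together was not determined. Wnt11 is higher in Cap-B than in Cap-L and lower in Bell-B than in Bell-L, and Wnt10a the reverse. The third Bell-W library stands above the other 2 for Wnt4, Wnt6, Wnt7b, Wnt10a and Wnt10b.

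Among the ligands known from epithelium, Wnt10a (chr1:74830675-74843338, plus strand), whose loss causes missing teeth in people, was highest in Bell-W (12.8 CPM) and Bell-B (10.7), which overlapped. Bell-L (7.89), Cap-B+2D (4.74), Cap-L+2D (3.28), Cap-L (2.98), Cap-B (1.87) and Cap-W (0.942) followed, and only Cap-L+2D and Cap-L overlapped among them. Wnt10b (chr15:98668593-98676031, minus strand), which promotes bone formation, was highest in Cap-L (15.0 CPM) and Cap-L+2D (14.8), which overlapped. It was lowest in Cap-B (4.63) and Cap-W (4.45), which also overlapped. Wnt7b (chr15:85419638-85466674, minus strand), a ligand of lung and kidney epithelium, was highest in Cap-L (9.36 CPM), and every neighbouring pair down to Bell-B (4.17) overlapped. Its level in Cap-B+2D (1.68 CPM) lay below the libraries of every other group. Wnt6, best known from ectoderm and kidney, stood at 2.89 CPM in both cultured groups, below every library of the other 6. Wnt4 (chr4:137004800-137027037, plus strand), required for kidney tubules, ranged from 21.3 CPM in Cap-B to 11.0 in Cap-B+2D, and only Cap-B+2D was separate from its neighbour.

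One undivided library separated the ligands known from epithelium from the rest. The epithelial marker sum was 2801 CPM in Bell-W replicate 3 and averaged 731 in the other 2 Bell-W libraries, a ratio of 3.83. Wnt4 was at 41.4 CPM in that library against a mean of 8.72 in the other 2, a ratio of 4.75. Wnt7b (15.1 against 3.62 CPM) had a ratio of 4.16, Wnt10a (22.0 against 8.12 CPM) of 2.71, Wnt10b (19.9 against 7.94 CPM) of 2.51 and Wnt6 (17.2 against 8.60 CPM) of 2.00. All of these 5 ligands were highest in the epithelium-rich library, as were Wnt5b and Wnt11, at 1.14 and 1.10 times the mean of the other 2. Of the remaining ligands, Wnt5a (201 against 252 CPM), Wnt2b (3.30 against 5.43 CPM) and Wnt2 (1.45 against 1.62 CPM) were lowest there. These are values of 1 library against 2, with no test.

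**Figure D3:**
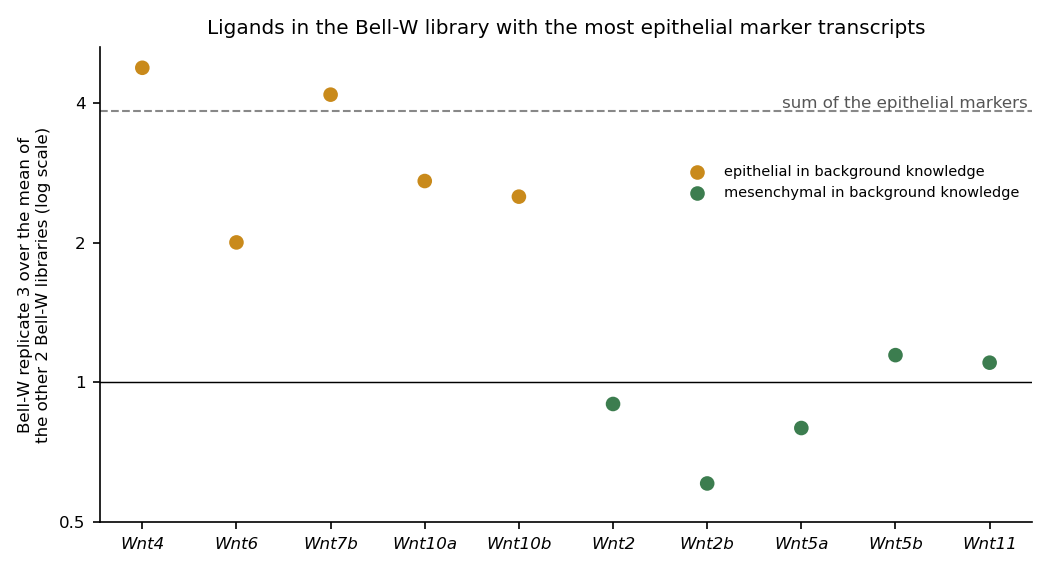
Ratio of each ligand's CPM in Bell-W replicate 3 to its mean in the other 2 Bell-W libraries (vertical axis, log scale), with ligands known from epithelium in ochre and the others in green. The ochre points lie between 2.00 and 4.75, around the dashed line of the epithelial marker sum at 3.83, and the green points between 0.606 and 1.14.

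The same was asked of all libraries, as the correlation of each ligand with the epithelial marker sum after each group's mean had been taken from both on the log2 scale. Over 24 libraries, Pearson's r was 0.967 for Wnt4 (Spearman's rho 0.717), 0.862 for Wnt6 (rho 0.75) and 0.42 for Wnt5b (rho 0.566). By a permutation test within groups, p was 0.00075 for Wnt4, 0.00685 for Wnt6 and 0.00626 for Wnt5b, or 0.0075, 0.0228 and 0.0228 after Benjamini-Hochberg adjustment over the 10 ligands. Wnt10b (r = 0.899) and Wnt7b (r = 0.887) had an adjusted permutation p of 0.0917, and Wnt10a (r = 0.727) of 0.463. Spearman's rho was 0.578, 0.521 and 0.13 for these 3 ligands. Wnt5a had r = −0.577 (adjusted permutation p = 0.216) and rho = −0.681. For rho, the adjusted permutation p was 0.0113 for Wnt4, Wnt5a and Wnt6 and 0.0296 for Wnt5b. For Wnt2, Wnt2b and Wnt11, r was −0.13, −0.427 and 0.0219. Without Bell-W replicates 2 and 3, the libraries farthest from the median, r was 0.603 for Wnt4, 0.402 for Wnt6, 0.371 for Wnt7b, 0.526 for Wnt10b and −0.908 for Wnt5a, and no ligand had an adjusted permutation p under 0.05 for r. There rho was 0.592 for Wnt4 (adjusted permutation p = 0.119), 0.649 for Wnt6 (0.0553) and −0.785 for Wnt5a (0.0278). The calls on r for Wnt4, Wnt6 and Wnt5b thus rested on those libraries, while the negative rank correlation of Wnt5a passed with and without them.

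At the cap stage, the buccal part had more Wnt5a, Wnt5b and Wnt11 and less Wnt2, Wnt2b, Wnt10a and Wnt10b than the lingual part. These were 3 ligands called higher and 4 called lower in Cap-B, while 17.5% of the 20653 genes tested were called in either direction, 10.4% higher and 7.1% lower. A gene was called at an adjusted p under 0.05 in edgeR's quasi-likelihood test with an absolute log2 fold change over 0.5. The median log2 fold change of the 10 ligands was −0.28, against −0.01 for all genes tested. For a single gene, an exact permutation test (two-sided) on 3 and 3 libraries has p = 0.1 as its smallest value, so the tests here rest on the spread pooled across genes. Wnt10b had 14.0, 16.0 and 15.1 CPM in the Cap-L libraries and 5.24, 4.31 and 4.36 CPM in the Cap-B libraries. It showed the largest side difference among the ligands at this stage (log2 fold change −1.68, standard error, SE, 0.10, adjusted p in edgeR = 6.39e-11). Wnt2 had 16.5, 18.7 and 18.2 CPM in Cap-L and 8.53, 9.58 and 8.68 CPM in Cap-B, with no overlap (log2 fold change −0.97, SE 0.08, adjusted p in edgeR = 1.11e-08). Wnt5b went the other way, with 8.12, 9.96 and 8.30 CPM in Cap-L and 16.8, 16.4 and 19.7 CPM in Cap-B (log2 fold change 1.02, SE 0.09, adjusted p in edgeR = 4.05e-08).

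Wnt5a had 121, 117 and 124 CPM in Cap-L and 202, 208 and 200.5 CPM in Cap-B, a change of 0.78 (SE 0.04, adjusted p in edgeR = 6.60e-11) on the log2 scale. Wnt11 had 13.4, 17.2 and 14.9 CPM in Cap-L and 24.3, 23.4 and 22.6 CPM in Cap-B (log2 fold change 0.64, SE 0.08, adjusted p in edgeR = 2.39e-06). Wnt2b and Wnt10a were lower in Cap-B by smaller amounts, with log2 fold changes of −0.69 and −0.65. Wnt4 and Wnt7b had log2 fold changes of 0.44 and −0.33, which passed the adjusted p (0.000365 and 0.0135) but not the limit on the fold. Wnt6 had a log2 fold change of −0.23 (adjusted p in edgeR = 0.139). Of the 14 epithelial markers, 10 were called lower in Cap-B, and their sum ranged from 653 to 731 CPM in the Cap-L libraries and from 452 to 478 in the Cap-B libraries. All 8 skeletal muscle markers were called higher in Cap-B, with sums of 265 to 282 CPM against 23.8 to 24.4. All 6 bone markers were called lower there, with sums of 446 to 462 CPM against 965 to 985. The part of these cells in the ligand differences was not tested.

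At the bell stage, 3 of the 10 ligands differed between the sides. Wnt5b was higher in Bell-B, and Wnt2 and Wnt11 were lower, while 12.9% of 21181 genes were called in either direction, 6% higher and 6.88% lower. The median over the ligands was −0.18, against 0.00 for all genes tested. Wnt11 had 40.0, 36.8 and 38.9 CPM in Bell-L and 16.7, 14.3 and 16.6 CPM in Bell-B, so that its side difference (log2 fold change −1.28, SE 0.06, adjusted p in edgeR = 5.77e-22) was opposite to that at the cap stage. Wnt2 kept its lingual excess, with 6.81, 8.13 and 8.04 CPM in Bell-L and 3.58, 4.02 and 3.84 CPM in Bell-B (log2 fold change −1.01, SE 0.11, adjusted p in edgeR = 1.29e-10). Wnt5b kept its buccal excess, with 7.34, 7.58 and 7.94 CPM in Bell-L and 16.8, 16.3 and 17.5 CPM in Bell-B (log2 fold change 1.15, SE 0.07, adjusted p in edgeR = 7.38e-17). Wnt5a, with 246 to 257 CPM in Bell-L and 243 to 259 CPM in Bell-B, overlapped fully (log2 fold change 0.00, SE 0.03, adjusted p in edgeR = 0.968). Wnt2b, Wnt10a, Wnt10b and Wnt6 passed the adjusted p but not the limit on the fold, with log2 fold changes of −0.44, 0.44, −0.34 and 0.27. Wnt4 (−0.09) and Wnt7b (−0.27) did not pass either. The epithelial marker sum was 1091 to 1142 CPM in Bell-L and 752 to 784 in Bell-B, with 8 of 14 markers called lower in Bell-B, and the muscle sum was 126 to 134 CPM against 1043 to 1067, with all 8 markers called higher. Their part in the ligand differences was not tested.

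After 2 days of culture the sides differed in 8 of the 10 ligands, with Wnt5a and Wnt10a higher in Cap-B+2D and Wnt2, Wnt2b, Wnt4, Wnt7b, Wnt10b and Wnt11 lower. Of 21195 genes tested, 25.1% were called, 12.5% in each direction. The median log2 fold change was −0.92 over the ligands and 0.00 over all genes. Wnt2 had 16.2, 17.5 and 17.5 CPM in Cap-L+2D and 1.78, 1.78 and 2.06 CPM in Cap-B+2D. This was the largest side difference of any ligand (log2 fold change −3.20, SE 0.10, adjusted p in edgeR = 2.57e-19). Wnt7b had 7.14, 6.56 and 6.71 CPM in Cap-L+2D and 1.34, 2.30 and 1.39 CPM in Cap-B+2D (log2 fold change −2.05, SE 0.15, adjusted p in edgeR = 6.68e-12). Wnt11 had 44.7, 41.9 and 42.4 CPM on the lingual side and 14.3, 12.8 and 13.4 CPM on the buccal side (log2 fold change −1.67, SE 0.06, adjusted p in edgeR = 2.48e-18). All 3 ligands were lower in every Cap-B+2D library than in every Cap-L+2D library, as were 29.1% of all genes tested. Wnt2b and Wnt10b had log2 fold changes of −1.57 and −1.14, and Wnt4 of −0.69.

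Wnt5a was higher on the cultured buccal side, with 263, 266 and 258 CPM against 167, 173 and 167 CPM (log2 fold change 0.63, SE 0.04, adjusted p in edgeR = 1.19e-13). Wnt10a had 4.56, 4.60 and 5.06 CPM in Cap-B+2D and 2.50, 3.93 and 3.40 CPM in Cap-L+2D. Its log2 fold change of 0.51 (SE 0.13, adjusted p in edgeR = 0.00212) lay close to the limit, and without Cap-L+2D replicate 1 it was 0.37 and without Cap-B+2D replicate 3 it was 0.46, neither of which was called. Wnt5b had a log2 fold change of 0.45 (adjusted p in edgeR = 0.000109), short of the limit. Wnt6 had 2.63 to 3.10 CPM in Cap-L+2D and 2.72 to 3.10 CPM in Cap-B+2D, with a log2 fold change of −0.02 (adjusted p in edgeR = 0.929). The epithelial marker sum was 505 to 546 CPM in Cap-L+2D and 102.5 to 103 in Cap-B+2D. Of 14 markers, 12 were called lower and 1 higher on the buccal side. The muscle sum was 328 to 350 CPM against 4206 to 4424, and the bone sum 2341 to 2373 against 580 to 600.5. Where the epithelial marker sum was 5.14 times lower, 3 of the 5 ligands known from epithelium were called lower (Wnt7b, Wnt10b and Wnt4). Wnt6 differed by −0.02 and Wnt10a was 0.51 higher on the log2 scale. Of the other 5 ligands, 3 were called lower as well (Wnt2, Wnt2b and Wnt11) and 1 higher (Wnt5a), and Wnt5b was not called. The part of these cells in the ligand differences was not tested.

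**Figure D4:**
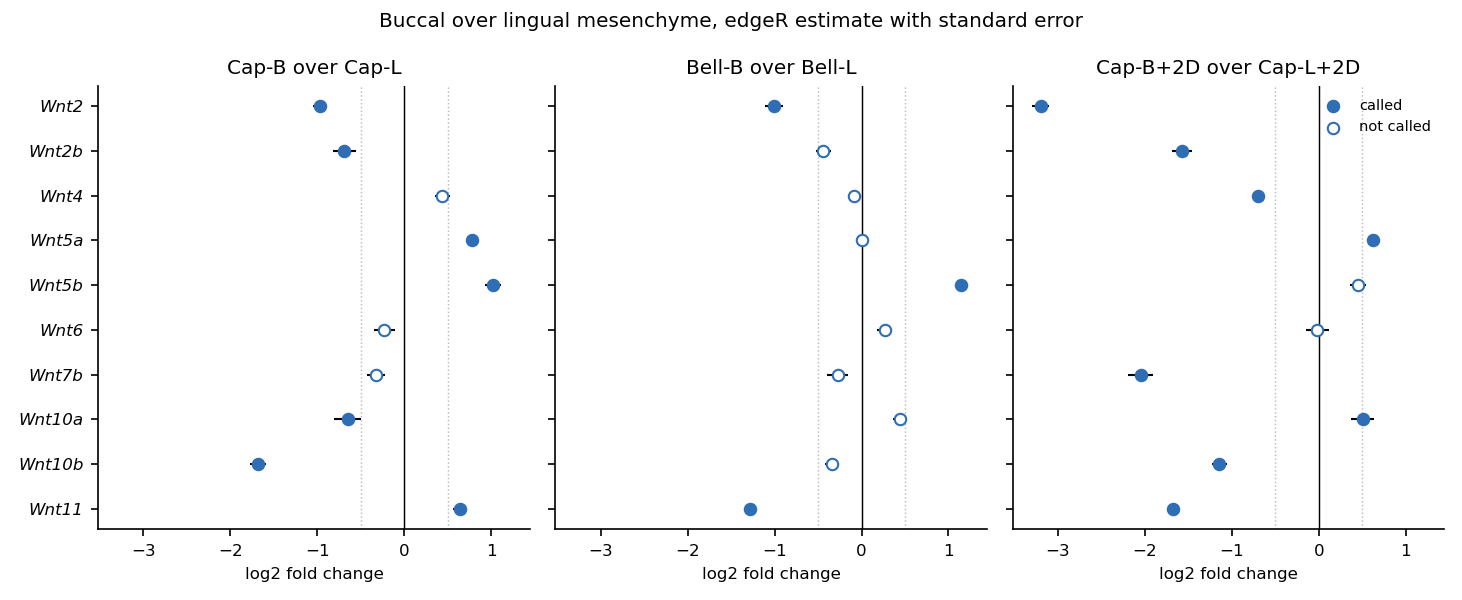
Log2 fold change of buccal over lingual mesenchyme (horizontal axis) for the 10 ligands in cap stage, bell stage and cultured parts, with edgeR standard errors as bars and dotted lines at the fold limit of 0.5. Filled points were called. Wnt2 lies at −0.97, −1.01 and −3.20, and Wnt11 moves from 0.64 to −1.28 and −1.67.

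Whether a side difference itself changed was tested as an interaction over 12 libraries, called at an adjusted p under 0.05 with no limit on the fold. Between the stages, 6 ligands were called, 3 in each direction, and 32.5% of 21931 genes were, 14.5% toward the buccal and 18% toward the lingual side. Wnt11 shifted toward the lingual side by −1.92 (SE 0.10, adjusted p in edgeR = 1.60e-15), Wnt5a by −0.78 (SE 0.05, adjusted p in edgeR = 1.16e-12) and Wnt4 by −0.53 on the log2 scale. Wnt10b shifted toward the buccal side by 1.33 (SE 0.12, adjusted p in edgeR = 3.71e-10), Wnt10a by 1.09 and Wnt6 by 0.49. For Wnt2 and Wnt5b the side differences of the stages were not separable, with interactions of −0.04 (SE 0.13, adjusted p in edgeR = 0.846) and 0.12 (SE 0.12, adjusted p in edgeR = 0.485), nor did Wnt2b (0.25) and Wnt7b (0.05) pass. Between the fresh and the cultured cap stage parts, 9 ligands were called and 35.5% of 22098 genes were, 16% toward the buccal and 19.5% toward the lingual side. Wnt11 (−2.31), Wnt2 (−2.23), Wnt7b (−1.72), Wnt4 (−1.14), Wnt2b (−0.89), Wnt5b (−0.57) and Wnt5a (−0.16) shifted toward the lingual side in culture. Wnt10a (1.16) and Wnt10b (0.54) shifted toward the buccal side, and Wnt6 (0.21) did not pass. Wnt5a lost this call in 5 of 18 alternatives, among them leaving out Cap-B replicate 2 (adjusted p = 0.0812), Cap-L+2D replicate 2 (0.0762) or Cap-B+2D replicate 3 (0.0502). Wnt6 lost its call between the stages without Cap-B replicate 3 (0.36, adjusted p = 0.0612). With all 24 libraries in 1 edgeR fit, the calls between the stages were lost for Wnt4 (adjusted p = 0.614), Wnt6 (0.279) and Wnt10a (0.0954). Those between fresh and cultured parts were lost for Wnt4 (0.153), Wnt5a (0.766), Wnt10a (0.0617) and Wnt10b (0.301). Both interactions use the same Cap-L and Cap-B libraries.

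Within the lingual part, the bell stage had more Wnt10a, Wnt11 and Wnt5a and less Wnt2 and Wnt7b than the cap stage, 5 of the 10 ligands where 20% of 21425 genes were called, 14.2% higher and 5.78% lower. Wnt10a had 2.75, 3.09 and 3.11 CPM in Cap-L and 7.42, 7.98 and 8.27 CPM in Bell-L (log2 fold change 1.41, SE 0.12, adjusted p in edgeR = 5.33e-10). Wnt11 rose by 1.34 (SE 0.07, adjusted p in edgeR = 2.40e-14) and Wnt5a by 1.07 (SE 0.04, adjusted p in edgeR = 9.61e-17), from the values already given. Wnt2 had a log2 fold change of −1.21 (SE 0.08, adjusted p in edgeR = 3.98e-12) and Wnt7b of −0.88. Wnt2b (0.33) and Wnt10b (−0.18) passed the adjusted p only, and Wnt4 (−0.04), Wnt5b (−0.21) and Wnt6 (0.14) did not pass it. After culture of the lingual part, where 35.4% of genes were called (19.6% higher and 15.9% lower), Wnt11 was higher (log2 fold change 1.50, SE 0.07, adjusted p in edgeR = 7.36e-16) and Wnt6 lower. Wnt6 had 7.87, 7.93 and 6.53 CPM in Cap-L and 2.96, 2.63 and 3.10 CPM in Cap-L+2D (log2 fold change −1.35, SE 0.11, adjusted p in edgeR = 1.02e-10). Wnt5a, at 0.50, fell just short of the limit on the fold, and Wnt7b (−0.46) and Wnt2b (0.24) also passed the adjusted p only. Wnt4 (0.16), Wnt10a (0.16), Wnt5b (−0.07) and Wnt10b (−0.02) did not pass it. Wnt2, with 16.5 to 18.7 CPM before and 16.2 to 17.5 CPM after culture, had a log2 fold change of −0.06 (SE 0.07, adjusted p in edgeR = 0.514). Markers of other cells moved far in this comparison. All 8 muscle markers were called higher, from summed levels of 23.8 to 24.4 CPM in Cap-L to 328 to 350 CPM in Cap-L+2D, as were all 6 macrophage markers (56.9 to 61.2 against 539 to 560 CPM) and 4 of 6 bone markers (965 to 985 against 2341 to 2373 CPM). All 6 erythroid markers were called lower, from 1992 to 2442 CPM to 22.0 to 26.2 CPM. Their part in the ligand differences was not tested. Set against Bell-L, where 31.2% of genes were called (14.4% higher and 16.8% lower), Cap-L+2D had more Wnt2 (log2 fold change 1.15) and less Wnt6 (−1.50), Wnt10a (−1.25) and Wnt5a (−0.58). Wnt7b (0.42), Wnt4 (0.20) and Wnt11 (0.15) passed the adjusted p only, and Wnt10b (0.16), Wnt5b (0.14) and Wnt2b (−0.08) did not. These 3 comparisons share their libraries in pairs.

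Within the buccal part, 8 of the 10 ligands differed between the stages, 4 in each direction, while 18.7% of 21992 genes were called, 12% higher and 6.73% lower. Wnt10a had 1.72, 2.05 and 1.83 CPM in Cap-B and 11.2, 9.92 and 10.9 CPM in Bell-B, the largest stage difference within a part (log2 fold change 2.51, SE 0.12, adjusted p in edgeR = 1.35e-18). Wnt10b, its relative, had a log2 fold change of 1.16, Wnt6 of 0.65 and Wnt2b of 0.58. Without Cap-B replicate 3, Wnt2b was not called (0.43). Wnt2 was lower at the bell stage (log2 fold change −1.24, SE 0.10, adjusted p in edgeR = 3.68e-12), as were Wnt7b (−0.83), Wnt11 (−0.57) and Wnt4 (−0.56). Wnt4 was not called without Cap-B replicate 1 (−0.48). Wnt5a (0.30) passed the adjusted p only, and Wnt5b (−0.08) did not. The epithelial marker sum was 1.66 times higher in Bell-B than in Cap-B and 1.62 times higher in Bell-L than in Cap-L, and its part in the stage differences was not tested.

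In culture the buccal part had less of 7 ligands and more of 2, where 34.5% of genes were called, 17.9% higher and 16.6% lower. Wnt2 had a log2 fold change of −2.27 (SE 0.11, adjusted p in edgeR = 5.12e-18) and Wnt7b of −2.18 (SE 0.15, adjusted p in edgeR = 1.30e-14). Wnt6 (−1.13), Wnt4 (−0.97), Wnt11 (−0.81), Wnt2b (−0.63) and Wnt5b (−0.63) were also lower. Without Cap-B+2D replicate 1, Wnt2b was not called (−0.48). Wnt10a was higher (log2 fold change 1.32, SE 0.13, adjusted p in edgeR = 2.06e-10), and Wnt10b by 0.52, close to the limit, was not called without Cap-B replicate 2, Cap-B replicate 3 or Cap-B+2D replicate 2 (0.47, 0.48 and 0.47). Wnt5a, at 0.35, passed the adjusted p only. The epithelial marker sum was 4.51 times lower in Cap-B+2D than in Cap-B, against 1.30 times lower in Cap-L+2D than in Cap-L. In the buccal comparison, 13 of 14 markers were called lower and 1 higher. Of the 5 ligands known from epithelium, mean Wnt7b was 4.39 times lower in Cap-B+2D than in Cap-B, Wnt6 2.17 times and Wnt4 1.93 times. Wnt10a was 2.54 times and Wnt10b 1.45 times higher. Of the other 5 ligands, mean Wnt2 was 4.77 times lower, Wnt11 1.73 times and Wnt2b and Wnt5b 1.53 times each. Wnt5a was 1.29 times higher. All 8 muscle markers (265 to 282 against 4206 to 4424 CPM) and all 6 macrophage markers (56.3 to 62.0 against 311 to 317 CPM) were called higher in Cap-B+2D, and all 6 erythroid (2330 to 2397 against 28.2 to 32.9 CPM) and all 7 endothelial markers lower. The part of these cells in the ligand differences was not tested. Set against Bell-B, where 31.8% of genes were called (15.5% higher and 16.3% lower), Cap-B+2D had less of 7 ligands. By edgeR and DESeq2, 0 were higher, also at an unadjusted p under 0.05. Wnt6 (−1.78), Wnt7b (−1.35), Wnt2b (−1.22), Wnt10a (−1.19), Wnt2 (−1.03), Wnt10b (−0.64) and Wnt5b (−0.56) were lower, and Wnt5a differed by 0.05 (adjusted p in edgeR = 0.184). Wnt4 (−0.40) and Wnt11 (−0.24) passed the adjusted p only.

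**Figure D5:**
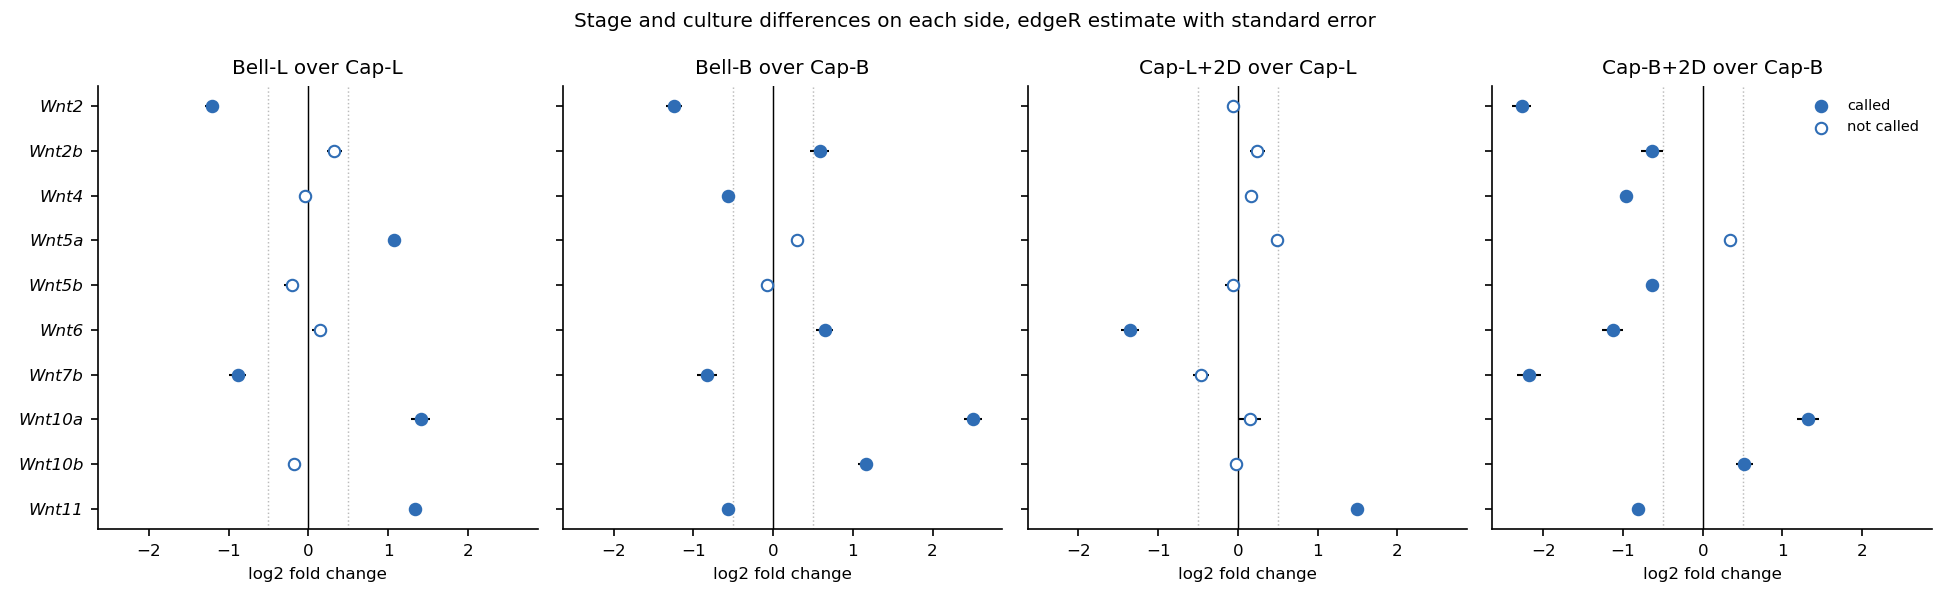
Log2 fold change (horizontal axis) of the bell over the cap stage and of cultured over fresh cap stage parts, on the lingual and the buccal side, with edgeR standard errors as bars and dotted lines at the fold limit of 0.5. Filled points were called. Culture gives 2 filled points on the lingual side, Wnt6 and Wnt11, and 9 on the buccal side.

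In the undivided mesenchyme, Wnt10a and Wnt11 were higher at the bell stage and Wnt2 lower, where 14.5% of 20940 genes were called, 10.3% higher and 4.21% lower. Wnt10a had 0.612, 1.19 and 1.03 CPM in Cap-W and 6.58, 9.67 and 22.0 CPM in Bell-W (log2 fold change 3.71, SE 0.52, adjusted p in edgeR = 0.00328). Without Bell-W replicate 3, the library richest in epithelial markers, the log2 fold change was 3.06 (adjusted p = 0.00383). Wnt11 had 6.57, 10.0 and 6.84 CPM in Cap-W and 14.5, 17.8 and 17.8 CPM in Bell-W (log2 fold change 1.07, SE 0.21, adjusted p in edgeR = 0.013), and was not called without Cap-W replicate 3 (adjusted p = 0.0634) or Bell-W replicate 2 (0.0602). Wnt10b (1.41, adjusted p = 0.056), Wnt5a (0.78, 0.0665) and Wnt6 (0.67, 0.174) were higher in every Bell-W library than in every Cap-W library, as were 21% of all genes tested, but did not pass the test. Without Bell-W replicate 3, Wnt10b was at 0.82 (adjusted p in edgeR = 0.0886), Wnt5a at 0.88 (0.0781) and Wnt6 at 0.25 (0.342). DESeq2, edgeR without a filter on low counts, with all 24 libraries and with the replicate number as a block each called Wnt10b and Wnt5a, with adjusted p of 0.0137 and 0.0125 under the block. Wnt2 had a log2 fold change of −2.12 (adjusted p in edgeR = 0.00123), Wnt5b of −0.37 and Wnt2b of −0.20, and the latter pair did not pass. Wnt4 and Wnt7b had log2 fold changes of 0.44 and 0.45 with standard errors of 0.60 and 0.58, and both took the opposite sign, −0.74 and −0.60, without Bell-W replicate 3.

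Among the 9 other Wnt ligand genes, Wnt9a and Wnt16 were the most abundant. Wnt9a, known from joint formation, had 87.8 to 96.0 CPM in Cap-L+2D and 27.7 to 31.4 CPM in Cap-B+2D (log2 fold change −1.66, adjusted p in edgeR = 1.73e-19). Its 27.8 RPKM in Cap-L+2D was above the 21.6 RPKM of Wnt5a in the same group. Wnt16, a ligand of bone and blood precursors, was higher on the buccal side in all 3 comparisons. It had 3.87 to 5.26 CPM in Cap-L and 19.7 to 21.9 CPM in Cap-B, with log2 fold changes of 2.17 at the cap stage, 1.45 at the bell stage and 1.06 after culture. Wnt3a was lower on the buccal side at the cap (−1.35) and the bell stage (−0.58), and Wnt3 (0.59) and Wnt9b (1.62) were higher there at the cap stage. In these comparisons, 5, 5 and 2 of the 9 genes passed the filter on low counts. Of them, 3 were called higher and 1 lower at the cap stage, and 1 in each direction in the bell stage and in the cultured parts. Of all genes tested, 17.5%, 12.9% and 25.1% were called in these comparisons. In culture, Wnt3a and Wnt3 fell on both sides, with log2 fold changes of −2.93 and −2.61 on the lingual and −4.09 and −4.29 on the buccal side. Neither gene passed the filter on low counts between the cultured sides, so these fold changes end at low counts. Wnt9a (1.57) and Wnt16 (1.22) were higher on the lingual side and were not called on the buccal side, and the interaction of side with culture was −1.87 for Wnt9a and −1.12 for Wnt16 (adjusted p in edgeR = 2.71e-18 and 2.85e-08). On the buccal side Wnt9b (−5.60), barely expressed after culture, also fell.

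Of the 5 genes for Wnt release tested, Wls, the carrier of Wnt proteins to the cell surface, was the only one called at the cap stage (0.55, higher in Cap-B), and the trafficking gene Tmed5 the only one called after culture (−0.63). At the bell stage edgeR and DESeq2 called 0, with 2 and 1 at an unadjusted p under 0.05. Of 16 receptor genes, 1 was called higher and 4 lower in Cap-B, 1 lower in Bell-B, and 3 higher and 2 lower in Cap-B+2D, beside calls for 17.5%, 12.9% and 25.1% of all genes tested. The receptor Fzd1 was lower on the buccal side in all 3 comparisons, by −0.60, −0.66 and −1.15 on the log2 scale. Fzd9 (−1.55) and Fzd5 (−1.39) were lower in Cap-B, and the Wnt5a receptor gene Ror1 (0.74) was higher there. After culture Fzd4 (1.56), Ror1 (0.56) and Fzd10 (0.50) were higher and Fzd5 (−1.06) lower in Cap-B+2D. Of 17 genes for β-catenin, its partners and its regulators, Lef1 and Tcf7l2 were called higher on the buccal side in all 3 comparisons, Lef1 by 0.72, 0.59 and 1.13 and Tcf7l2 by 1.15, 0.59 and 0.57. Tcf7 was lower in Cap-B (−1.06) and in Cap-B+2D (−1.44).

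In culture, 4 of the 16 receptor genes were called higher on the lingual side, with Fzd1 (0.69), Fzd9 (0.67) and Ror2 (0.65) ahead, and 4 were called higher and 1 lower on the buccal side, with Fzd9 (1.90), Fzd4 (0.92) and Ptk7 (0.63) ahead and Lrp6 (−0.68) lower, beside calls for 35.4% and 34.5% of all genes tested. Lef1 and the β-catenin cofactor Pygo1 were the 2 relay genes called on each side, both lower, with Lef1 at −1.14 on the lingual and −0.73 on the buccal side. Tmed2 was higher on both sides (0.72 and 0.71), and Wls on the lingual side (0.75). Between the stages, Fzd9 was the 1 receptor gene called within the lingual part (−0.93), where 20% of all genes tested were called. For the relay genes edgeR and DESeq2 called 0 of 17 there, with 10 lower and 1 higher at an unadjusted p under 0.05 in each, and for the release genes 0 of 5, with 3 higher. The share of all genes at that unadjusted p was not determined. Within the buccal part, Fzd6 (0.76) and Fzd5 (0.54) were higher at the bell stage, as was Tcf7 (1.72), and Tcf7l2 was lower (−0.61). Of all genes tested, 18.7% were called there.

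For each ligand, the genes whose log2 level followed it most closely over the 24 libraries were listed, among 14317 genes with a mean of at least 4 CPM. The libraries share groups and tissue composition, so these values are descriptions. Wnt10a was followed by Rem1 (r = 0.95), Gpd1l (0.949) and Eng (0.919), and Wnt6 by Bcam (0.94), Gm6091 (0.93) and Tuba1b (0.929). Wnt5b was followed by Ikzf2 (0.936), Dgkb (0.886) and the dental mesenchyme gene Pax9 (0.884). Wnt10b was followed by the receptor gene Fzd5 (0.918), Rflnb (0.898) and Slc25a3 (0.894), and Wnt5a by Akap6 (0.916), Abca9 (0.912) and Dock10 (0.909). For Wnt2 these were Lrfn1 (0.911), Cdo1 (0.909) and St3gal2 (0.908), and for Wnt11 Gm43618 (0.913), Arhgap25 (0.908) and Entrep2 (0.899). The values were lower for Wnt7b, with Cyp2w1 (0.889), Rps6ka1 (0.877) and Kcnip3 (0.856), for Wnt2b, with Phactr2 (0.852), Rp2 (0.848) and Jcad (0.84), and for Wnt4, with Ppp1r13l (0.848), Fam83h (0.837) and Phc2 (0.826). Among the ligands themselves the closest pair was Wnt4 with Wnt7b (r = 0.768).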

How the data were processed

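RNA of 24 libraries in 8 groups was sequenced as read pairs, and the authors deposited counts of read pairs per gene in 1 table, without normalization. Per the file headers, featureCounts 2.0.0 counted exons of Ensembl release 107 genes of GRCm39 without strand, and read pairs on exons of several genes are left out by its default. Exon bases shared with a gene on the opposite strand were 8.8% of Wnt11, 6.61% of Wnt7b and 4.58% of Wnt5a, and the other 7 ligands shared none. The labels name Bowtie 1.2.3 and Subread 2.0.3 and a SMARTer kit, where the paper names STAR and a stranded kit, and which applied was not settled here. Symbols were matched by gene identifier (56017 of 56748).

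Counts were fitted for each comparison with edgeR 4.0.16 (R 4.3.3), TMM scaling, filterByExpr and quasi-likelihood tests, with Benjamini-Hochberg adjustment over all genes tested. A call needed an adjusted p below 0.05 and a log2 fold change beyond 0.5 in size, and for interactions the adjusted p alone. Groups of 1 side shared a fit of 9 libraries. The replicate number was no block, since in no comparison did every pair of same-numbered libraries pass the limit set for pairing. The lowest correlation of their deviations from the group means ranged from −0.316 to 0.0927 over the comparisons. All were positive, though small, between the undivided stages (0.0927 to 0.111) and between the buccal stages (0.0579 to 0.156). Correlations used log2(CPM + 0.5), and within-group permutations numbered 100000. The floor of 3 counts came to 0.0764 to 0.146 CPM and speaks to counting error alone, because duplicates from PCR remain in the counts.

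The members and gene lists were chosen with earlier results of these data known. The values of all 10 members were given for each comparison. Of the lists of other Wnt genes, up to 3 called genes in each direction with the largest change were named, and 3 genes like each member. The alternatives were RLE scaling, DESeq2 1.42.0, other filters on low counts, all 24 libraries in 1 fit, the replicate block and fits that omit 1 library. The imaging, transplantation and RT-qPCR experiments were not analysed here. The values of 1 marker gene are not reported here.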

Additional observations from a re-analysis of the deposited data

Results flagged for a closer look

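The side difference (buccal over lingual) of some ligands changed with stage or with culture by a test of the change itself, an interaction over 12 libraries in edgeR's quasi-likelihood test. Between the cap and the bell stage the change on the log2 scale was −0.53 for Wnt4, −0.78 for Wnt5a, 0.49 for Wnt6, 1.09 for Wnt10a, 1.33 for Wnt10b and −1.92 for Wnt11. Between the fresh and the cultured cap stage parts it was −2.23 for Wnt2, −0.89 for Wnt2b, −1.14 for Wnt4, −0.16 for Wnt5a, −0.57 for Wnt5b, −1.72 for Wnt7b, 1.16 for Wnt10a, 0.54 for Wnt10b and −2.31 for Wnt11. Both tests share the Cap-L and Cap-B libraries. The test for a lone deviating library was not made, since groups of 3 libraries are too small for it.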

How the results depend on the processing

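Of 120 ligand results (10 ligands in 12 comparisons), 71 were called, and 54 of these were called under every alternative. Of all genes tested, 12.9% to 35.5% were called, depending on the comparison. The share of all genes called under every alternative was not determined. Of the other 17, 9 were lost only with all 24 libraries in 1 fit, where the undivided libraries enter the estimate of the spread: Wnt10a (cap stage sides), Wnt4 (sides after culture), Wnt7b (lingual and buccal stage), Wnt4 and Wnt10a (side by stage) and Wnt4, Wnt10a and Wnt10b (side by culture). In that fit the ligands called higher numbered 1 between the sides after culture, 5 between the undivided stages, 1 in the buccal part in culture, 1 for side by stage and 0 for side by culture (edgeR, 1 at an unadjusted p under 0.05, and 2 called by DESeq2 in its own fit). Those called lower numbered 1 in the lingual and 2 in the buccal stage comparison, and all genes called numbered 5887 between the undivided stages, 2581 for side by stage and 4048 for side by culture. Between the undivided stages, DESeq2 and no filter on low counts each called 4 ligands higher against 2, and in lingual culture RLE scaling, DESeq2 and no filter each called 2 higher against 1. With each library left out, the ligands called higher ranged from 1 to 3 between the sides after culture, from 1 to 3 between the undivided stages, from 1 to 2 in lingual culture (lower also 1 to 2) and from 1 to 2 in buccal culture. All genes called between the undivided stages then ranged from 1758 (without Cap-W replicate 3) to 3057, with 1832 without Bell-W replicate 2. The replicate number as a block left 118 of 120 ligand results as they were and called 4 ligands higher between the undivided stages, with Wnt5a and Wnt10b added. The same-numbered libraries share only a number.

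In 11 ligand results, none of them called, the sign of the log2 fold change turned when 1 library was left out. Over all the alternatives, including the fits that omit 1 library, Wnt5a ranged from −0.016 to 0.027 between the sides at the bell stage. Wnt6 ranged from −0.081 to 0.042 after culture. Between the undivided stages Wnt2b ranged from −0.53 to 0.0049, Wnt4 from −0.74 to 0.82 and Wnt7b from −0.60 to 0.80. Wnt4 ranged from −0.12 to 0.044 in the lingual stage comparison, Wnt5b from −0.14 to 0.042 and Wnt10b from −0.080 to 0.026 in lingual culture, and Wnt5b from −0.13 to 0.013 in the buccal stage comparison. For side by stage, Wnt2 ranged from −0.11 to 0.027 and Wnt7b from −0.060 to 0.16. Without Bell-W replicates 2 and 3, Pearson's r with the epithelial markers was 0.603 for Wnt4, 0.302 for Wnt5b and 0.402 for Wnt6, and it turned sign for Wnt2 (0.222), Wnt2b (0.284), Wnt10a (−0.429) and Wnt11 (−0.547). The cause of these changes was not tested. Of 80 group levels, 9 moved by more than 1 SD without TMM scaling and 0 with RLE factors. Counts did not limit the ligands, the lowest being 11 counts.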
